A study of Homo sapiens with 6 samples.

Results

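The members of AP-1 and their companion immediate early genes were compared between NCI-H1650Re and NCI-H1650, 2 human lung cancer cell lines. The 10 genes were FOS, FOSL1, FOSL2, JUN, JUNB, JUND, EGR1, KLF6, IER2 and IER3, taken by symbol from the deposited FPKM table, which lists 12659 genes. FPKM counts fragments per kilobase of transcript and relative to the fragments sequenced, so levels of genes and libraries can be set side by side. It does not correct for differences in RNA composition between libraries, and other scalings were run as alternatives. The filter used here asked for a mean FPKM of 1 or more in NCI-H1650Re or in NCI-H1650, and all 10 genes met it in both lines.

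NCI-H1650Re is labelled post-SCLC, read here as the state after transformation to small cell lung cancer. NCI-H1650, an established lung adenocarcinoma line with an activating EGFR deletion, is labelled pre-LUAD, read here as the state before it. How NCI-H1650Re was derived, whether it is 1 clone, and how either line was grown or handled before lysis are not given in the sources used here, and the labels name no treatment or time of stimulation. Polyadenylated RNA of each line was sequenced in 3 libraries. Replicate 3 stood farthest from the others in both lines. Nothing says that these were separate cultures, and the p-values below therefore rest on variation between libraries that may be technical.

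AP-1 is a family of leucine zipper factors that bind DNA as pairs, either a FOS protein with a JUN protein or JUN proteins with each other. Growth factors, stress and wounding switch on FOS, EGR1 and other immediate early genes within minutes without new protein synthesis, mostly through MAP kinases, serum response factor (SRF) and its ETS partners. FOS protein and mRNA are short-lived, whereas FOSL1 (FRA1) and FOSL2 (FRA2) come later and last longer. FOSL1 is known for its part in epithelial tumours with sustained RAS and ERK signalling, and JUND is the JUN protein that is commonly present in resting cells. Immediate early mRNAs also respond to medium changes and cell handling.

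The promoters of EGR1, FOS, JUND and KLF6 are shown because these were the changed genes that kept their call under every alternative and had an entry in the RefSeq promoter table used here (GRCh38.p14). Each runs 5′ to 3′ on the gene's own strand from 250 bases before the start to 50 after it. FOSL1 and IER3 were not matched. Capitals mark the matches found in a search of both strands for the AP-1 site TGANTCA, the cyclic AMP response element TGACGTCA, the ETS site CGGAAG and the CArG box, the element that SRF binds. In the EGR1 promoter, chr5:138465229-138465528 on the plus strand, the capitals are the CArG boxes. In the JUND promoter, chr19:18281573-18281872 on the minus strand, they are the cyclic AMP response element. The FOS promoter, chr14:75278578-75278877 on the plus strand, and the KLF6 promoter, chr10:3785160-3785459 on the minus strand, had no match to these letters in this window.
EGR1: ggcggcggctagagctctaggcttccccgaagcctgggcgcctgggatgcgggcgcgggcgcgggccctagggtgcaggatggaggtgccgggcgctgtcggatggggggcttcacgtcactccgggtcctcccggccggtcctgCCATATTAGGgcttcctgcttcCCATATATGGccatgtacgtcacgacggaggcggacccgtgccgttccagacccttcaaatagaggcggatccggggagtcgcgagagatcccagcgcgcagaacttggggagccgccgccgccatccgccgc
FOS: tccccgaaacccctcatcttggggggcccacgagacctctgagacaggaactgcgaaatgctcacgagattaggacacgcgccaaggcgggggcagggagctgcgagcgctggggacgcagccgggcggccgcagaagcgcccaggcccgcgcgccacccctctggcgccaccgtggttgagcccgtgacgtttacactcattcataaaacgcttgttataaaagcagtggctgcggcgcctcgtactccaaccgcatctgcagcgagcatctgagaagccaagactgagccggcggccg
JUND: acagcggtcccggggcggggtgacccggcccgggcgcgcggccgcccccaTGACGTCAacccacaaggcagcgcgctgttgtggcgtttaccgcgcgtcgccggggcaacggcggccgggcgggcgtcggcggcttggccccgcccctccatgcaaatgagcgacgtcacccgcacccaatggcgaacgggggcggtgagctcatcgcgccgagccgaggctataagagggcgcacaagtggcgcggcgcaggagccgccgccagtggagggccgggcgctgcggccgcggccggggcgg
KLF6: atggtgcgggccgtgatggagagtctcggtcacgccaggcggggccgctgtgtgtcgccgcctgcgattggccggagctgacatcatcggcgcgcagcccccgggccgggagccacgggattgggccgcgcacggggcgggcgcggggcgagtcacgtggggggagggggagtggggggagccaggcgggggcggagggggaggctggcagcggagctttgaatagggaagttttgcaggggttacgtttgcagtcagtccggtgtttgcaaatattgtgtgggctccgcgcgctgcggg

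The EGR1 window held CArG boxes at -105 to -96 and at -83 to -74 from the start, and 1.29% of the 35116 promoters in the table held at least 1. JUND held its element at -200 to -193, as did 1.85% of all promoters somewhere in the window. Among the other members, FOSL2 held an AP-1 site at 5 to 11 bases after the start, where 7.71% of promoters held one. IER2 held ETS sites at -70 to -65 and -27 to -22, and JUNB held one at -53 to -48, all on the minus strand, against 19.5% of promoters. JUN had no match. These matches describe the letters and show no binding.

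The 10 genes did not change in 1 direction. FOSL1, JUND and KLF6 were higher in NCI-H1650Re, EGR1, FOS, FOSL2 and IER3 were lower, and JUN, JUNB and IER2 did not pass the test. That is 7 of 10 called by limma on log2(FPKM + 1) at a Benjamini-Hochberg adjusted p of 0.05, where 30.5% of the 11764 tested genes were called. The 3 higher members compare with 16.6% of all tested genes and the 4 lower members with 13.9%. The libraries of the lines did not overlap for 7 members, against 47.2% of all tested genes. The members were chosen with earlier results of these data known, so these shares are a setting for the counts and no test of them. The median log2 change of the 10 was -0.32, beside 0.03 over all tested genes. In bulk RNA, fewer cells that express a gene and less of its RNA per cell cannot be told apart. Changes here are NCI-H1650Re minus NCI-H1650 on the log2(FPKM + 1) scale, which understates the change of low genes.

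**Figure D1:**
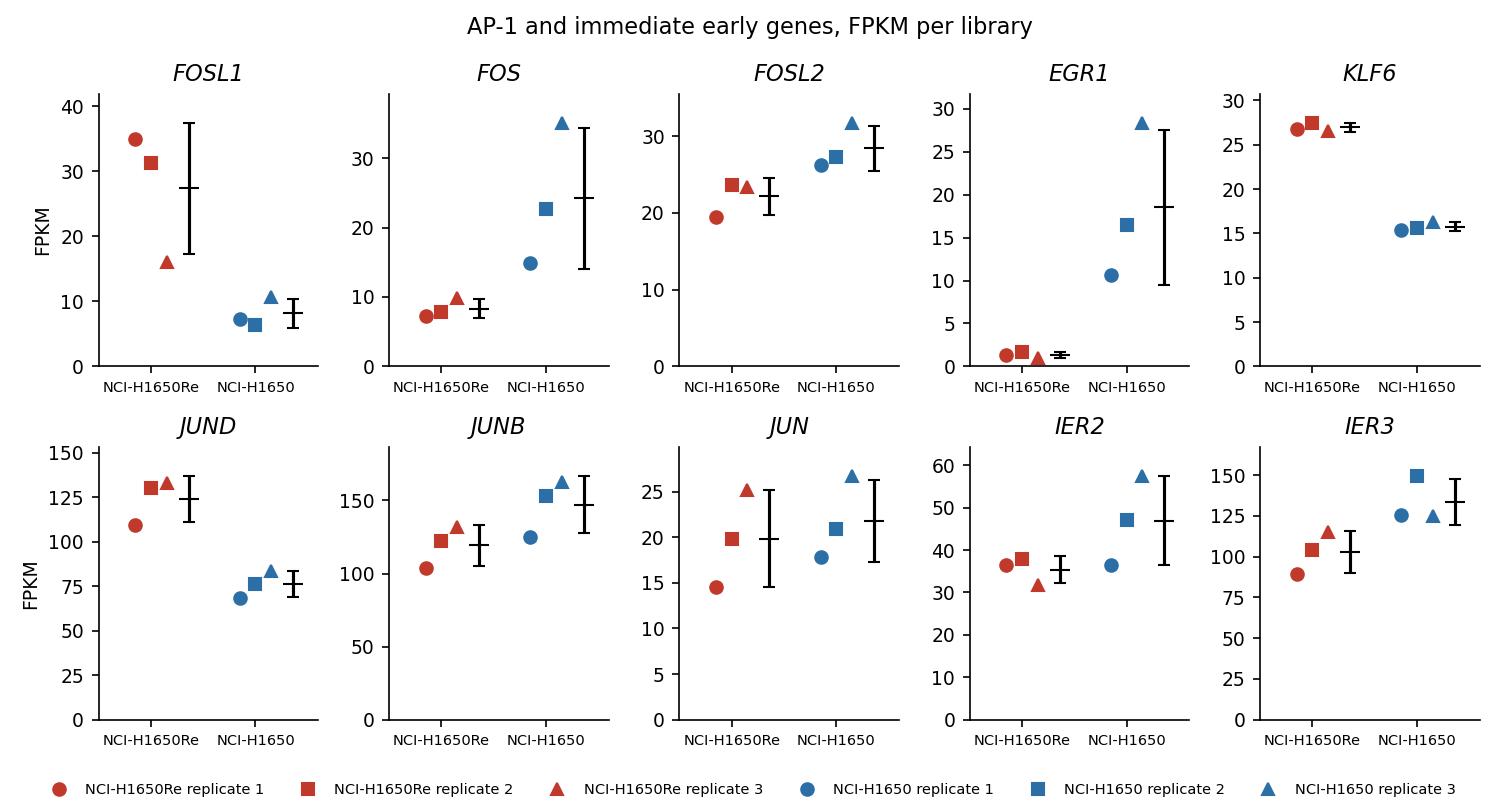
FPKM (vertical axis, linear, from 0) of the 10 genes in each library of NCI-H1650Re (red) and NCI-H1650 (blue), with symbols for replicates 1, 2 and 3 and bars for the mean ± SD of 3 libraries. FOSL1, JUND and KLF6 lie above NCI-H1650 in all 3 NCI-H1650Re libraries, and EGR1 lies at 0.99 to 1.68 FPKM in NCI-H1650Re against 10.69 to 28.38 in NCI-H1650.

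In the FOS family FOSL1 was higher and FOS lower in NCI-H1650Re. FOSL1 had 34.98, 31.2 and 15.99 FPKM in NCI-H1650Re replicates 1, 2 and 3, against 7.36, 6.37 and 10.68 FPKM in those of NCI-H1650. All 3 NCI-H1650Re libraries were higher than all 3 NCI-H1650 libraries, and replicate 3 was the lowest of its line in NCI-H1650Re and the highest in NCI-H1650. FOSL1 averaged 27.4 ± 10.05 FPKM in NCI-H1650Re and 8.14 ± 2.26 in NCI-H1650 (SD, n = 3 each), a 3.37-fold difference of means. Its log2 change was 1.59 (SE 0.29, 95% interval 0.92 to 2.26, limma adjusted p = 0.00621), and 2.12 without both replicate 3 libraries. Without that pair, 43.2% of tested genes were called and the same 7 members. FOSL1 lies on chromosome 11, 65892049 to 65900573, minus strand (GRCh38).

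FOS itself went the other way. It had 7.28, 7.8 and 9.89 FPKM in NCI-H1650Re replicates 1, 2 and 3, against 14.94, 22.64 and 35.09 FPKM in those of NCI-H1650. The highest NCI-H1650Re library was below the lowest NCI-H1650 library, and the NCI-H1650 libraries differed among themselves by 2.35-fold, whereas the median tested gene differed by 1.15-fold across them. FOS averaged 8.32 ± 1.38 FPKM in NCI-H1650Re and 24.2 ± 10.2 in NCI-H1650, with a log2 change of -1.37 (SE 0.27, 95% interval -1.99 to -0.75, limma adjusted p = 0.00828). FOS lies on chromosome 14, 75278774 to 75282230, plus strand (GRCh38).

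FOSL2, which like FOSL1 lacks the strong activation domain of FOS, differed less. It had 19.43, 23.6 and 23.4 FPKM in NCI-H1650Re, against 26.23, 27.27 and 31.75 FPKM in NCI-H1650, with no overlap. Its log2 change was -0.35 (SE 0.10, limma adjusted p = 0.0391), and the call was lost without NCI-H1650Re replicate 1 or 2 or without any NCI-H1650 replicate (adjusted p 0.0563 to 0.0965). FOSB, the remaining FOS protein, was at 1.73, 1.82 and 1.63 FPKM in NCI-H1650Re and at 1.21, 1.6 and 3.97 in NCI-H1650 and did not pass (log2 change -0.17, 95% interval -0.79 to 0.46, limma adjusted p = 0.670). FOSL2 lies on chromosome 2, 28392448 to 28417312, plus strand, where the antisense gene FLJ31356 overlaps it.

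In shares, FOSL1 made up 55.2%, 48.4% and 31.4% of the summed FPKM of FOS, FOSB, FOSL1 and FOSL2 in NCI-H1650Re replicates 1, 2 and 3, against 14.8%, 11.01% and 13.1% in those of NCI-H1650. FOS made up 11.5%, 12.1% and 19.4% in NCI-H1650Re, against 30.04%, 39.1% and 43.1% in NCI-H1650. Both shares were separated between the lines in all libraries, and FOSL1 exceeded FOS in NCI-H1650Re, with a ratio of 4.8, 4.0 and 1.62, whereas the same ratio was 0.493, 0.281 and 0.304 in NCI-H1650. The FOSL2 shares overlapped, at 30.6% to 46.0% in NCI-H1650Re and 39.0% to 52.7% in NCI-H1650. The summed level of the family also overlapped, at 50.9 to 64.4 FPKM in NCI-H1650Re and 49.7 to 81.5 FPKM in NCI-H1650. These are shares of transcripts and were not tested.

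**Figure D2:**
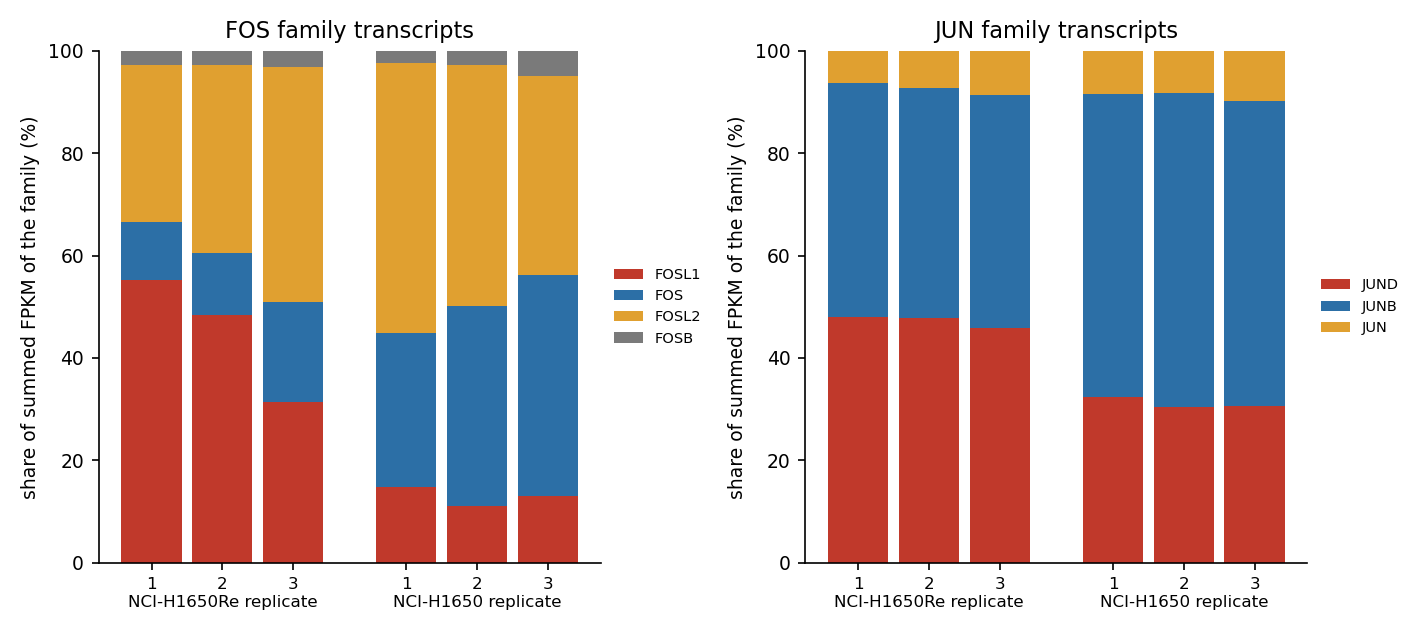
Share (%) of each gene in the summed FPKM of the FOS family (left) and the JUN family (right), 1 bar per library with NCI-H1650Re replicates 1, 2 and 3 left of those of NCI-H1650. FOSL1 takes 31.4% to 55.2% of the FOS family in NCI-H1650Re and 11.01% to 14.8% in NCI-H1650, and JUND takes 45.9% to 48.0% of the JUN family in NCI-H1650Re and 30.5% to 32.4% in NCI-H1650.

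Within the JUN family only JUND passed. It had 109.32, 130 and 133.03 FPKM in NCI-H1650Re replicates 1, 2 and 3, against 68.58, 76.5 and 83.56 FPKM in those of NCI-H1650. The lines did not overlap, and both had replicate 1 lowest and replicate 3 highest. JUND averaged 124.1 ± 12.9 FPKM in NCI-H1650Re and 76.2 ± 7.49 in NCI-H1650, 1.63-fold, with a log2 change of 0.70 (SE 0.10, 95% interval 0.46 to 0.94, limma adjusted p = 0.00292). JUND lies on chromosome 19, 18279760 to 18281622, minus strand (GRCh38).

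JUNB, which can oppose JUN at shared targets, had 104.09, 122.48 and 131.62 FPKM in NCI-H1650Re, against 125.29, 153.36 and 162.92 FPKM in NCI-H1650. The lines overlapped, with a log2 change of -0.30 (95% interval -0.58 to -0.01, limma adjusted p = 0.102), and the change passed without NCI-H1650 replicate 1 (adjusted p = 0.0482). Reads of JUNB (chromosome 19, 12791496 to 12793315, plus strand) may include some of HOOK2, a gene on the other strand that overlaps it, since the sources used here do not say whether the libraries kept strand.

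JUN, the founding member, had 14.58, 19.8 and 25.14 FPKM in NCI-H1650Re, against 17.79, 20.86 and 26.71 FPKM in NCI-H1650. The lines overlapped almost fully, and the log2 change was -0.14 (95% interval -0.61 to 0.33, limma adjusted p = 0.625). Its sign turned when replicate 1 of NCI-H1650Re (0.052) or replicate 3 of NCI-H1650 (0.0084) was left out. JUN lies on chromosome 1, 58780788 to 58784327, minus strand.

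JUND took 48.0%, 47.7% and 45.9% of the summed JUN family FPKM in NCI-H1650Re replicates 1, 2 and 3, against 32.4%, 30.5% and 30.6% in those of NCI-H1650. JUNB took 45.7%, 45.0% and 45.4% in NCI-H1650Re, against 59.2%, 61.2% and 59.6% in NCI-H1650. Thus JUND and JUNB were near parity in NCI-H1650Re, with a ratio of 1.05, 1.06 and 1.01, and JUNB exceeded JUND in NCI-H1650, with a ratio of 0.547, 0.499 and 0.513. JUN took 6.40% to 8.675% in NCI-H1650Re and 8.32% to 9.78% in NCI-H1650, which overlap. JUN, JUNB and JUND had the same order of libraries within each line, replicate 1 lowest and replicate 3 highest, and their shares varied less between libraries of a line than their levels did. The summed JUN family was at 228 to 290 FPKM in NCI-H1650Re and at 212 to 273 FPKM in NCI-H1650, also overlapping.

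EGR1, a zinc finger factor that binds GC-rich promoters and an early product of ERK and SRF activity, had the largest change of the 10. It had 1.35, 1.68 and 0.99 FPKM in NCI-H1650Re replicates 1, 2 and 3, against 10.69, 16.46 and 28.38 FPKM in those of NCI-H1650. The deposited read counts behind these values were 86, 114 and 56 in NCI-H1650Re and 748, 1000 and 1514 in NCI-H1650. Every NCI-H1650Re library was far below every NCI-H1650 library, and the NCI-H1650 libraries spread over 2.655-fold. EGR1 averaged 1.34 ± 0.345 FPKM in NCI-H1650Re and 18.5 ± 9.02 in NCI-H1650, where it was 13.8-fold higher. The log2 change was -2.97 (SE 0.30, 95% interval -3.66 to -2.27, limma adjusted p = 0.000739). By mean level EGR1 was above 6.59% of tested genes in NCI-H1650Re and above 71.8% in NCI-H1650. It lies on chromosome 5, 138465490 to 138469315, plus strand (GRCh38).

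KLF6, a Krüppel-like zinc finger factor with growth-restraining roles in several tumours, had the tightest values. It had 26.83, 27.48 and 26.55 FPKM in NCI-H1650Re replicates 1, 2 and 3, against 15.36, 15.62 and 16.34 FPKM in those of NCI-H1650. The libraries of a line differed by 1.035-fold in NCI-H1650Re and by 1.064-fold in NCI-H1650, so the lines were far apart relative to their spread. KLF6 averaged 26.95 ± 0.477 FPKM in NCI-H1650Re and 15.8 ± 0.508 in NCI-H1650, 1.71-fold. Its log2 change was 0.74 (SE 0.06, 95% interval 0.59 to 0.88, limma adjusted p = 0.000392), and it lies on chromosome 10, 3775996 to 3785281, minus strand.

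IER3, a short-lived protein tied to cell survival and ERK signalling, had 89.03, 104.3 and 114.96 FPKM in NCI-H1650Re, against 125.78, 149.41 and 124.59 FPKM in NCI-H1650. The lines did not overlap, with a log2 change of -0.37 (SE 0.11, limma adjusted p = 0.0400). The call was lost without NCI-H1650Re replicate 1 or 2 or without any NCI-H1650 replicate (adjusted p 0.0540 to 0.145). IER2, a nuclear immediate early protein, had 36.54, 37.85 and 31.69 FPKM in NCI-H1650Re, against 36.36, 47.2 and 57.35 FPKM in NCI-H1650. NCI-H1650 replicate 1 lay within the range of NCI-H1650Re, and the log2 change of -0.38 (95% interval -0.74 to -0.02) did not pass (limma adjusted p = 0.102), except without that library (-0.55, adjusted p = 0.0251). IER3 lies on chromosome 6, 30743199 to 30744554, minus strand, and IER2 on chromosome 19, 13150415 to 13154908, plus strand. Antisense genes overlap both, IER3-AS1 and AC011446.2.

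**Figure D3:**
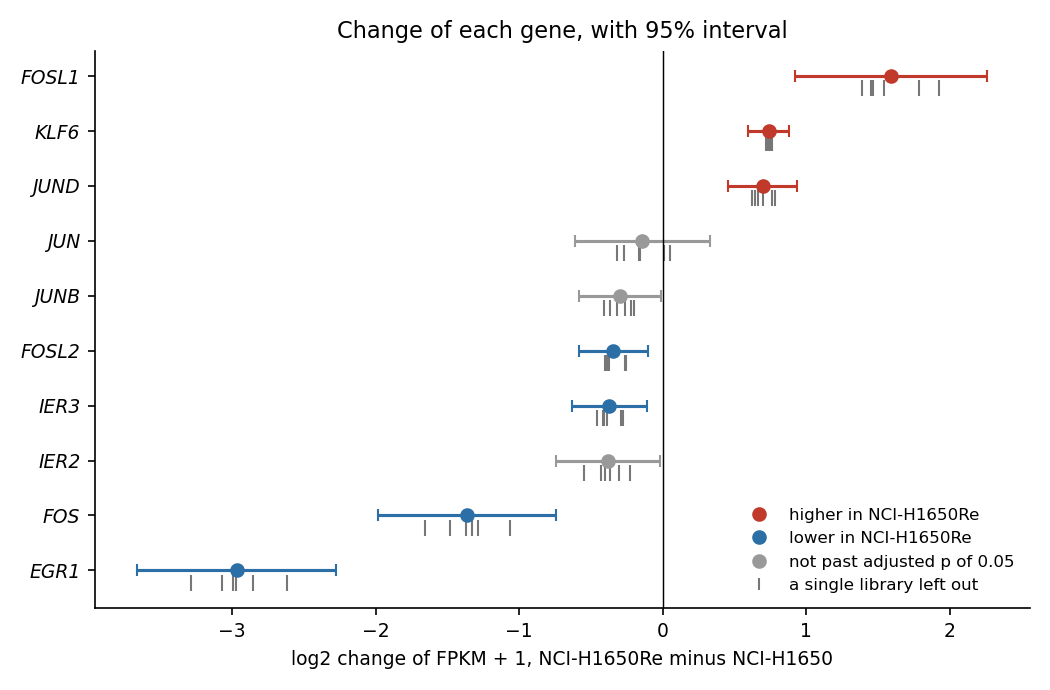
Log2 change of FPKM + 1 (horizontal axis, NCI-H1650Re minus NCI-H1650) of the 10 genes, as a point with its 95% limma interval, coloured by whether the gene was higher, lower or not past an adjusted p of 0.05, and a tick for each fit with a single library left out. EGR1 (-2.97) and FOS (-1.37) lie far left and FOSL1 (1.59) far right in every fit, whereas the ticks of JUN fall on both sides of 0.

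FOS, FOSL1, JUND, EGR1 and KLF6 stayed past the limma threshold in all 15 other settings tried, which include leaving out each of the 6 libraries. Their highest adjusted p values over these were 0.0370, 0.0302, 0.0188, 0.00571 and 0.00503. For each of the 7 genes whose lines did not overlap, the two-sided exact permutation p over libraries was 0.1, the smallest that 3 libraries a line allow. For JUNB, IER2 and JUN the exact p was 0.2, 0.3 and 0.7. In the authors' deposited table, 8 members had an FDR under 0.05 (27.9% of its genes), all but JUN and JUNB, and 3 members carried the authors' mark of regulation, EGR1, FOS and FOSL1 (6.79% of its genes). That table gives log2 fold changes of -3.81 for EGR1, -1.57 for FOS and 1.72 for FOSL1.

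The order of levels within each line followed these changes. In NCI-H1650Re, JUND, JUNB and IER3 had the highest FPKM and overlapped as neighbours, followed after a gap by IER2, FOSL1 and KLF6, then FOSL2 and JUN, then FOS, then EGR1. In NCI-H1650, JUNB and IER3 overlapped at the top, followed by JUND and then IER2, each set apart from its neighbours. FOSL2, FOS, JUN, EGR1 and KLF6 came next and overlapped as neighbours, and FOSL1 was last and separate. FOSL1 was above 79.9% of tested genes by mean level in NCI-H1650Re and above 47.4% in NCI-H1650, and FOS above 47.6% in NCI-H1650Re and 78.1% in NCI-H1650.

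Libraries of NCI-H1650 were ordered alike by most of these genes. Replicate 3 was the highest NCI-H1650 library for 9 of the 10 genes, all but IER3, whereas it was the highest for 35.6% of all tested genes. Replicate 1 was the lowest for 8 of the 10, against 33.3% of all tested genes. In NCI-H1650Re the members were less uniform, with replicate 3 highest for 5 and lowest for 4. NCI-H1650 replicate 3 had the lowest estimated depth of the 6 libraries, 17.0 M fragments in a range up to 22.3 M, and correlated with the others of its line at r = 0.988 and 0.990 over all tested genes, where those correlated at 0.997 with each other. Its part in the results was not tested beyond leaving it out. Without it the log2 changes were -1.07 for FOS and -2.62 for EGR1, and both passed.

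The genes most like FOSL1 over the 6 libraries, by Pearson r of log2(FPKM + 1) among 7803 candidates with a mean of at least 5 FPKM, were MYO1D (0.997), GAS8 (0.996), PREP (0.996), PSMC4 (0.995) and SDCCAG3 (0.995). The genes most like EGR1 were OBSL1 (0.998), HES1 (0.998), FHOD1 (0.997), TMEM87B (0.996) and DUS2 (0.995). The libraries share their line, so r takes in the difference between lines as well as the spread within them. Choosing by r therefore favours genes that differ between the lines in the same direction as FOSL1 or EGR1. The genes named changed less than FOSL1 and EGR1. Their log2 changes were 0.28 (PSMC4) to 0.62 (MYO1D) beside FOSL1 and -0.86 (FHOD1) to -0.26 (TMEM87B) beside EGR1.

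Genes next to each member on its chromosome were set beside it, the 12 nearest tested genes on either side. For the counts of neighbours called, the shares over all tested genes were 16.6% higher and 13.9% lower. EGR1 was lower than all 24 of its neighbours, whose median log2 change was -0.11 and lowest value -0.82, and of which 10 were lower and 1 higher. FOS was lower than all 24 of its neighbours (median 0.03), and FOSL1 was higher than all 24 of its own (median 0.15, 7 higher and 1 lower). KLF6 lies near the end of the short arm of chromosome 10, where 12 of its 20 neighbours were higher and 1 lower. The median there was 0.33, and 19 of the 20 were below KLF6. The neighbours of JUND had a median of 0.17, with 2 of 24 above JUND, and GDF15, an EGR1 target described with its list, was the highest of them at 3.41. Medians for the neighbours of the other members were between -0.08 and 0.03. Whether neighbours shifted together with KLF6, EGR1 or FOSL1 for a shared reason was not tested.

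**Figure D4:**
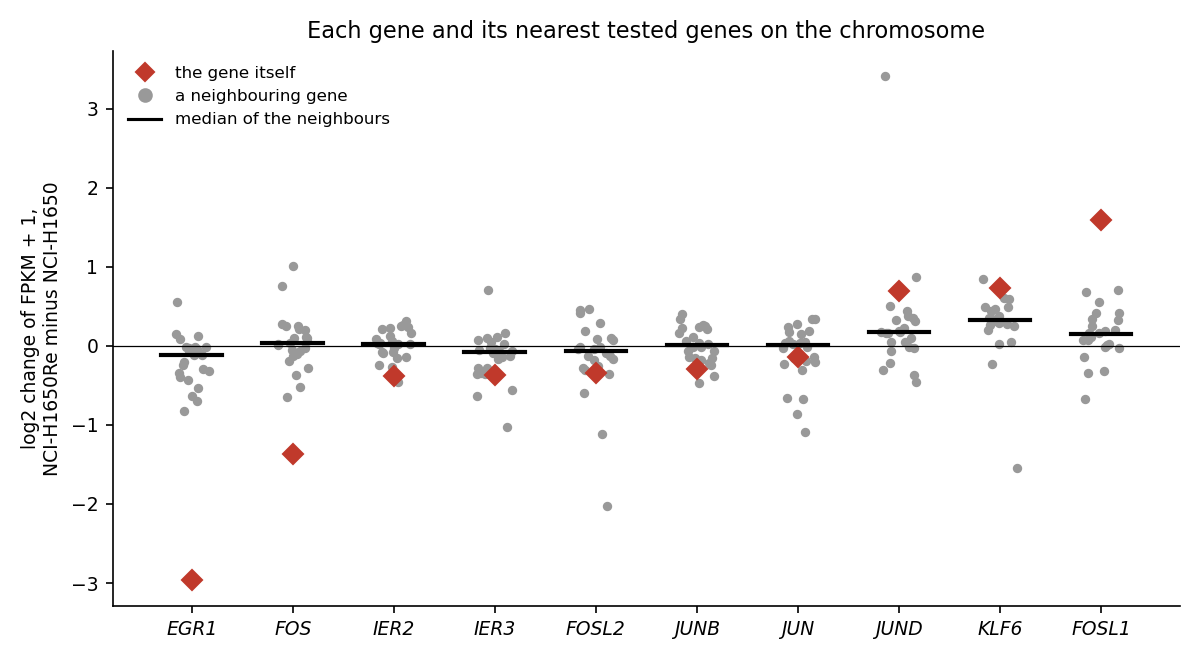
Log2 change of FPKM + 1 (vertical axis, NCI-H1650Re minus NCI-H1650) of each gene (diamond) and of its nearest tested genes on the chromosome (grey points, 24 per gene and 20 for KLF6), with a bar at the median of the neighbours. EGR1 and FOS lie below all their neighbours and FOSL1 above all of its own, and the neighbours of KLF6 have the highest median, 0.33.

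Among other leucine zipper partners of AP-1, including MAF proteins, 2 of 11 tested genes were higher, 1 lower and 8 did not pass (median log2 change 0.10). Of all tested genes, 16.6% were higher and 13.9% lower, the shares to set beside this list and those below. The lists too were chosen with earlier results of these data known. JDP2, a repressor that pairs with JUN proteins, had 12.98, 14.28 and 17.55 FPKM in NCI-H1650Re, against 6.52, 7.22 and 6.83 in NCI-H1650. Its libraries did not overlap (log2 change 1.01, SE 0.11, limma adjusted p = 0.000962), and it lies among the 24 neighbours of FOS. MAFF, a small MAF protein, averaged 9.92 ± 2.905 FPKM in NCI-H1650Re and 4.78 ± 2.02 in NCI-H1650 (log2 change 0.94, limma adjusted p = 0.0316), with NCI-H1650Re replicate 3 within the range of NCI-H1650. MAFF missed the threshold without replicate 1 or 2 of either line (adjusted p 0.0670 to 0.113). The higher count was 1 without replicate 1 or 2 of either line and 4 without both replicate 3 libraries.

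Of 30 other immediate early genes tested, 10 were higher, 2 lower and 18 did not pass, with a median log2 change of 0.26. KLF2 and PLK3, named here after their values were seen, are among the 10 and passed the filter only through NCI-H1650Re, where they averaged 1.69 and 1.23 FPKM, against 0.563 and 0.510 FPKM in NCI-H1650. KLF4, a zinc finger factor of epithelial differentiation, had 12.99, 16.24 and 21.89 FPKM in NCI-H1650Re, against 4.6, 4.22 and 10.84 in NCI-H1650 (log2 change 1.33, limma adjusted p = 0.0172). PPP1R15A, the phosphatase subunit GADD34, had 24.09, 35.91 and 32.7 FPKM in NCI-H1650Re, against 10.33, 10.81 and 19.72 in NCI-H1650 (log2 change 1.16, limma adjusted p = 0.0107). Both were separate between the lines and highest in replicate 3 within NCI-H1650, as FOS and EGR1 were. CTGF, a matricellular protein, averaged 15.3 ± 7.44 FPKM in NCI-H1650Re and 6.05 ± 0.531 in NCI-H1650 (log2 change 1.08, limma adjusted p = 0.0467). HBEGF, an EGFR ligand, averaged 6.57 ± 2.70 FPKM in NCI-H1650Re and 2.76 ± 1.24 in NCI-H1650 (log2 change 0.99, limma adjusted p = 0.0475). CTGF passed in 5 of 15 other settings and HBEGF in 8. With all 6 libraries both missed the threshold with no filter, median-of-ratios scaling or no variance trend (adjusted p 0.05003 to 0.0563), and CTGF with quantile normalization (0.0506). CTGF missed it without any single library but NCI-H1650Re replicate 1 (adjusted p 0.0794 to 0.153) and without both replicate 3 libraries (0.0789), and HBEGF without any but replicate 1 of NCI-H1650Re or replicate 3 of NCI-H1650 (0.0858 to 0.155). KLF4 missed it when NCI-H1650Re replicate 2, or replicate 1 or 2 of NCI-H1650, was left out (0.0568 to 0.06565), and without these the higher count was 3, 4 and 3. The lower count was 0 or 1 without any single library but NCI-H1650Re replicate 3.

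Of the factors that drive immediate early promoters, 2 of 6 were higher, 1 lower and 3 did not pass (median log2 change 0.10). MKL2, the SRF coactivator MRTF-B, had 11.21, 8.7 and 8.79 FPKM in NCI-H1650Re, against 22.35, 21.78 and 20.07 in NCI-H1650 (log2 change -1.09, SE 0.10, limma adjusted p = 0.000585). SRF had 15.6, 18.79 and 20.99 FPKM in NCI-H1650Re, against 12.34, 13.22 and 14.41 in NCI-H1650 (log2 change 0.44, limma adjusted p = 0.0236). Neither overlapped between the lines, and MKL2 passed in all 15 settings. SRF did not pass when NCI-H1650Re replicate 2, or replicate 1 or 2 of NCI-H1650, was left out (adjusted p 0.0816 to 0.0861). ELK4, an ETS partner of SRF, was higher by 0.21 (adjusted p = 0.0495) and did not pass in 10 of 14 settings, among them without any single library but NCI-H1650Re replicate 3. The higher count of this group was 0 to 3 without a single library, and 0 without the libraries named for SRF.

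Of the MAP kinases and linked kinases upstream of AP-1, 2 of 16 were lower, none higher and 14 did not pass (median log2 change -0.09). RPS6KA3, the ERK-activated kinase RSK2, had 5.44, 6.28 and 4.8 FPKM in NCI-H1650Re, against 8.37, 8.53 and 7.22 in NCI-H1650 (log2 change -0.48, limma adjusted p = 0.0131). MAPK8, the JUN kinase JNK1, had 2.01, 2.53 and 2.2 FPKM in NCI-H1650Re, against 3.54, 3.65 and 2.91 in NCI-H1650 (log2 change -0.43, limma adjusted p = 0.0195). Neither overlapped between the lines. Neither passed without NCI-H1650 replicate 1 or 2, and MAPK8 also did not without NCI-H1650Re replicate 1 (adjusted p 0.0506 to 0.0872 over both genes). mRNA levels do not show kinase activity.

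Of 10 genes for JUN turnover and EGR1 corepression, 1 was higher, 1 lower and 8 did not pass (median log2 change 0.04). ITCH, a ubiquitin ligase for JUN proteins, averaged 32.0 ± 0.653 FPKM in NCI-H1650Re and 26.2 ± 1.435 in NCI-H1650 (log2 change 0.28, limma adjusted p = 0.0177). NAB2, a corepressor that EGR1 itself induces, averaged 6.31 ± 0.386 FPKM in NCI-H1650Re and 7.85 ± 0.626 in NCI-H1650 (log2 change -0.27, limma adjusted p = 0.0408). ITCH did not pass without replicate 2 of either line (adjusted p 0.0674 and 0.0910), nor NAB2 without any single library but NCI-H1650 replicate 1 (0.0660 to 0.157) or without both replicate 3 libraries (0.09997).

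Known AP-1 target genes went both ways, with 4 of 14 tested higher, 3 lower and 7 not past the threshold (median log2 change 0.08). Shares over all tested genes were 16.6% higher and 13.9% lower. LIF, a cytokine of the IL6 family, had 9.67, 7.76 and 7.42 FPKM in NCI-H1650Re, against 1.44, 1.63 and 2.5 in NCI-H1650 (log2 change 1.71, SE 0.15, limma adjusted p = 0.000486). IL6 had 17.44, 30.67 and 26.17 FPKM in NCI-H1650Re, against 6.28, 5.95 and 14.91 in NCI-H1650 (log2 change 1.43, limma adjusted p = 0.0155). CCND1, which encodes the G1 cyclin D1, averaged 58.5 ± 10.6 FPKM in NCI-H1650Re and 36.3 ± 6.94 in NCI-H1650 (log2 change 0.67, limma adjusted p = 0.0175). TNC, the matrix protein tenascin C, averaged 56.3 ± 16.0 FPKM in NCI-H1650Re and 97.3 ± 5.49 in NCI-H1650 (log2 change -0.82, limma adjusted p = 0.0143). None of the 4 overlapped between the lines, and LIF passed in all 15 settings. IL6 and CCND1 did not pass when NCI-H1650Re replicate 2, or replicate 1 or 2 of NCI-H1650, was left out, nor TNC without either of the NCI-H1650 libraries (adjusted p 0.0514 to 0.0704). Without any of those libraries the higher count was 2, and without NCI-H1650 replicate 2 the lower count was 1. Several familiar targets, among them MMP1 and CXCL8, are not analysed here.

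Known EGR1 targets also went both ways, with 3 of 11 tested higher, 2 lower and 6 not past the threshold (median log2 change 0.22). Shares over all tested genes were 16.6% higher and 13.9% lower. GDF15, a stress-induced cytokine, had 26.91, 34.19 and 32.1 FPKM in NCI-H1650Re, against 1.38, 1.03 and 4.56 in NCI-H1650 (log2 change 3.41, SE 0.34, limma adjusted p = 0.000721). PDGFA, a growth factor chain, averaged 19.5 ± 1.84 FPKM in NCI-H1650Re and 13.9 ± 0.429 in NCI-H1650 (log2 change 0.46, limma adjusted p = 0.00570). TGFB1 averaged 44.2 ± 1.05 FPKM in NCI-H1650Re and 34.3 ± 2.96 in NCI-H1650 (log2 change 0.36, limma adjusted p = 0.0118). PDGFB averaged 17.0 ± 2.415 FPKM in NCI-H1650Re and 21.7 ± 0.869 in NCI-H1650 (log2 change -0.35, limma adjusted p = 0.0382). None of the 4 overlapped between the lines. GDF15 and PDGFA passed in all 15 settings, TGFB1 in all but without NCI-H1650Re replicate 2 (adjusted p = 0.0539), and PDGFB did not pass without any single library but NCI-H1650Re replicate 3 (0.0637 to 0.134). The lower count, which includes NAB2, was 0 or 1 without any single library, and the higher count was 5 without NCI-H1650Re replicate 1. Without both replicate 3 libraries the higher and lower counts were 14 and 3 for the other immediate early genes, 6 and 4 for AP-1 targets, 4 and 1 for EGR1 targets, 1 and 4 for the kinases and 1 and 1 for SRF and its partners. In that setting 43.2% of all tested genes were called.

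**Figure D5:**
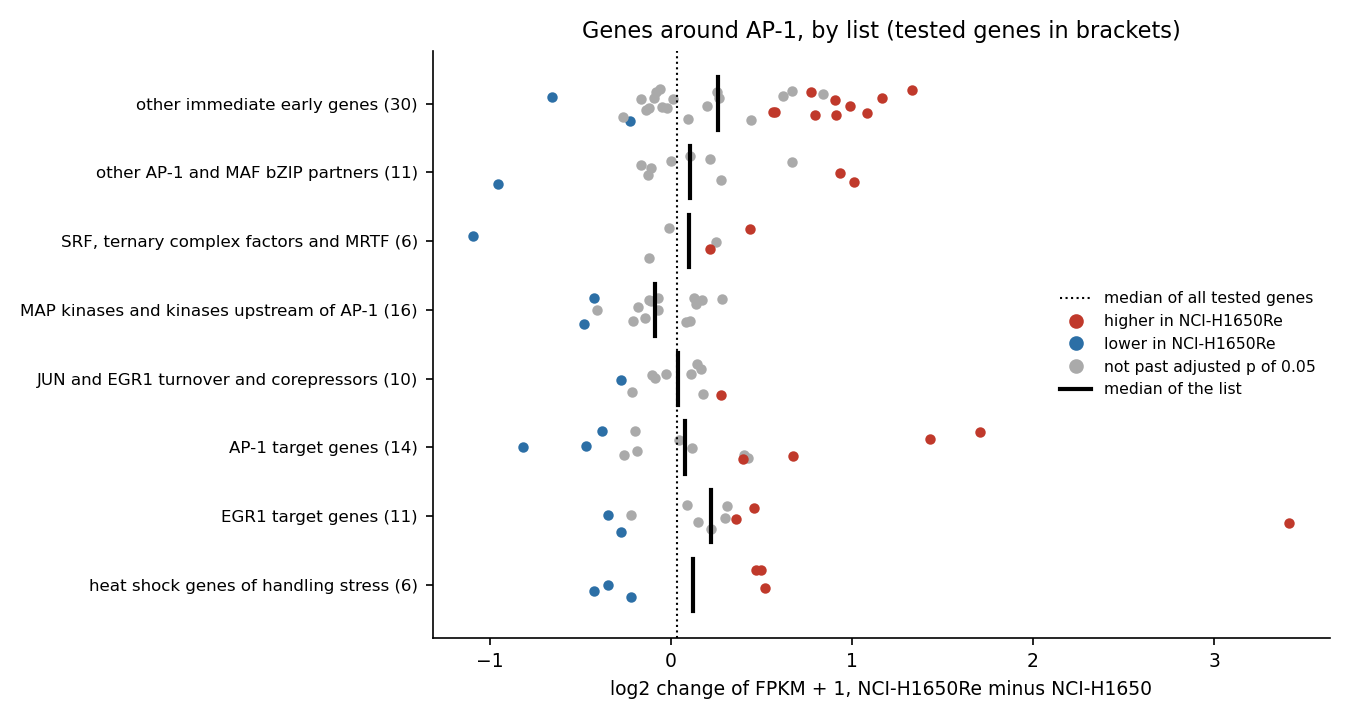
Log2 change of FPKM + 1 (horizontal axis, NCI-H1650Re minus NCI-H1650) of the tested genes in 8 groups around AP-1, 1 point per gene, coloured by call, with a bar at the group's median and a dotted line at the median of all tested genes, 0.03. The other immediate early genes have the highest median, 0.26, with KLF4 farthest right at 1.33, and among EGR1 targets GDF15 lies alone at 3.41.

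Markers of handling and of cell identity moved as follows. Of 6 heat shock genes, 3 were higher (HSPD1 0.52, HSPH1 0.50 and HSPA8 0.47 on the log2 scale) and 3 lower, led by HSPB1 (-0.42), with limma adjusted p between 0.00722 and 0.0425. HSPA8 missed the threshold without replicate 2 of either line (0.0717 and 0.0723). With all 6 libraries HSPB1 missed it under quantile normalization (limma adjusted p = 0.1008). The 3 lower calls were lost together without any single library but NCI-H1650Re replicate 3, and the lower count was 2 without both replicate 3 libraries. The summed level of the 6 was 1731 to 1842 FPKM in NCI-H1650Re and 1701 to 1799 FPKM in NCI-H1650, so the sums overlapped. Taken singly, each of the 6 genes was separate between the lines, as were 47.2% of all tested genes. The sum joins changes in opposite directions. HSPA8 averaged 690.7 FPKM in NCI-H1650Re and 496.4 in NCI-H1650, and HSPB1 averaged 649.6 and 863. Of 10 epithelial and lung adenocarcinoma markers 7 were tested, with 4 lower, none higher and summed levels of 3039 to 3083 FPKM in NCI-H1650Re and 3493 to 4621 in NCI-H1650. KRT19 (-3.59), CDH1 (-0.82), EPCAM (-0.50) and KRT8 (-0.46) were lower in log2 change, although KRT8 was not called without replicate 2 of either line (limma adjusted p 0.0611 and 0.0660). KRT7 went the other way without overlap between the lines, but did not pass (log2 change 0.35, limma adjusted p = 0.0563). KRT18 (0.13) and MUC1 (-0.43) did not pass either. KRT19 averaged 68.69 FPKM in NCI-H1650Re and 753.9 in NCI-H1650, and weighs heavily in the difference of the sums. In NCI-H1650Re, KRT7, KRT8 and KRT18 still averaged 1012, 861.1 and 846.1 FPKM. CDH1, EPCAM and MUC1 averaged 140.6, 104.1 and 31.07 FPKM there. In the same list 1 gene was higher without NCI-H1650Re replicate 3 and 2 were without NCI-H1650 replicate 3. Of 10 small cell and neuroendocrine markers 3 were tested, with sums of 7.48 to 11.2 FPKM in NCI-H1650Re and 4.47 to 5.59 in NCI-H1650, and 1 was higher, CHGA (log2 change 1.5, limma adjusted p = 0.0101), at 2.22, 5.15 and 2.79 FPKM in NCI-H1650Re and 0.11, 0.35 and 1.23 in NCI-H1650. CHGA passed the filter only through NCI-H1650Re, and 3 of the 3 were higher without NCI-H1650Re replicate 3. The defining factors NEUROD1, POU2F3 and INSM1, and NKX2-1 of the adenocarcinoma lineage, are not analysed here. Of 8 leukocyte, endothelial and fibroblast markers only COL1A1 was tested, at 1.05 to 2.69 FPKM in NCI-H1650Re and 0.98 to 1.05 in NCI-H1650, and it passed only without NCI-H1650Re replicate 3 or without both replicate 3 libraries. No tested marker was listed at 0 in any library. The part of these markers in the changes of the 10 genes was not tested.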

How the data were processed

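The authors deposited FPKM values of 12659 genes in each library. Among the tools in the submitters' processing notes are RSEM, HISAT2, DESeq2 and Bowtie2, with no versions or roles, and the build there is the mouse build mm10, whereas the deposited identifiers are human Ensembl genes. Of the human build and the filter behind that table nothing is stated in the sources used here. The authors deposited read counts for the 860 genes they marked. The FDR, an adjusted p-value, and the log2 fold change of each gene are the authors', per the file headers.

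A table of FPKM does not suit a count model, so the 11764 genes whose mean FPKM reached 1 in NCI-H1650Re or NCI-H1650 were tested with limma 3.58.1 (R 4.3.3, variance trend, no covariate) on log2(FPKM + 1) over all 6 libraries, with Benjamini-Hochberg adjustment at 0.05 over all tested genes. Alternatives were pseudocounts of 0.1 and 0.01, filters of 5 FPKM and none, scaling by median of ratios or quantiles, the replicate number as a block, a fit with no trend, each library left out, and both replicate 3 libraries left out. EGR1, FOS and FOSL1, the marked members, were also tested on deposited counts with edgeR 4.0.16 and DESeq2 1.42.0 over the marked genes. Depth was estimated from the ratio of counts to FPKM. The estimates were 20.3, 21.6 and 18.1 M fragments for NCI-H1650Re replicates 1, 2 and 3. For those of NCI-H1650 they were 22.3, 19.4 and 17.0 M. Differences between libraries rest on 122 of the marked genes. The level in fragments rests on only 6 of these, so it is rough. Ensembl identifiers gave gene positions and overlaps in GENCODE release 29 (GRCh38), and symbols gave RefSeq promoters (GRCh38.p14) for 8 of 10 members. The limma fit was tested on simulated data with planted changes and independent noise per gene. No shift shared by the genes of a library was simulated.

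The members and gene lists were chosen with earlier results of these data known. Named genes were the 10 members, up to 4 changed genes per list with the largest log2 change, and the 5 genes most like the member with the largest rise and the member with the largest fall. FOSB was added to complete the FOS family. Some genes that this rule names are not reported here. The numbers of the replicates were not taken as pairs, and the replicate block was run as an alternative. Deviations of same-numbered libraries correlated at 0.17, -0.04 and 0.21, and those of unlike-numbered libraries at -0.26 to 0.23. These values do not settle whether the numbers are pairs.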

Additional observations from a re-analysis of the deposited data

How the results depend on the processing

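FOS, FOSL1, JUND, EGR1 and KLF6 kept their direction and their call in every setting run. Counts were used only for genes the authors had marked as regulated, so the following count tests ran on genes chosen for their change and are no independent support. On them edgeR gave log2 changes of -3.78 for EGR1, -1.54 for FOS and 1.75 for FOSL1 (adjusted p = 0.000213, 0.00234 and 0.00179), and DESeq2 gave -3.79, -1.54 and 1.75 (3.37e-18, 2.77e-05 and 5.82e-06). Members higher numbered 3 in every setting, and members lower 2 to 4 without a single library, 2 when NCI-H1650Re replicate 1 or 2, or replicate 2 or 3 of NCI-H1650, was left out, FOSL2 and IER3 being lost. Without NCI-H1650 replicate 1 the 4 were EGR1, FOS, JUNB (0.0482) and IER2 (0.0251), as FOSL2 (0.0563) and IER3 (0.0728) were lost. JUN ran from -0.32 to 0.052 without a single library, turning to 0.052 (limma adjusted p = 0.848) without NCI-H1650Re replicate 1 and to 0.0084 (0.980) without NCI-H1650 replicate 3; the cause was not tested. With the replicate block, 3522 genes changed (29.9%), and 5 members were lower, JUNB being added (adjusted p = 0.0166); MAFF (0.0614), NAB2 (0.0596), ELK4 (0.0801) and SDCCAG3 (0.0541) lost their calls. Over all tested genes, leaving out a single library gave 1785 to 4478 changed genes, 899 to 2476 higher and 886 to 2002 lower. Without both replicate 3 libraries 5080 changed (43.2%) and the same 7 members were called. The share of higher calls was 54.4%, and 49.3% with median-of-ratios scaling. For the other named genes, 518 recomputed log2 changes kept their call and 94 lost it, with 0 turned. Depth is known only by estimate, and 3 libraries a line limit the precision.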
